A study of Rattus norvegicus with 4 samples.

Results

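The regions described here were stretches of the rat genome that carried H3K27Ac peaks in oligodendrocyte cultures after lysolecithin, with no H3K27Ac peak of the vehicle culture anywhere near them. Peaks of the vehicle and lysolecithin (LPC) H3K27Ac lists were pooled and joined where they lay at most 1 kb apart. The members were chosen by these H3K27Ac peak calls: a joined region was taken when it held LPC peaks only and no vehicle peak lay within 12.5 kb of either edge. Of 29950 joined regions on the 20 autosomes, 3427 met this rule (11.4%), and they are called isolated LPC-only regions below. Bedtools returned the same number, a difference of 0.

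H3K27Ac is acetylation of lysine 27 on histone H3, a mark placed by the acetyltransferases p300 and CBP and found on the nucleosomes that flank active promoters and enhancers. Away from promoters it separates active enhancers from primed or silent ones, and a single enhancer typically carries it over a short stretch. Olig2 is a basic helix-loop-helix transcription factor that is needed to specify the oligodendrocyte lineage and binds many of its enhancers. Lysolecithin is a detergent-like lysophospholipid that strips myelin when it is injected into white matter.

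The series held 4 chromatin immunoprecipitation (ChIP-seq) libraries, 1 for each pairing of antibody (H3K27Ac or Olig2) with condition (vehicle or 6 h of LPC). Mixed glia of the rat brain were held in serum medium for 5 to 7 days and in B104 conditioned medium for 2 days. Oligodendrocyte precursors were then detached from them mechanically and expanded with the mitogens bFGF (20 ng/ml) and PDGF-AA (10 ng/ml). They were differentiated with ciliary neurotrophic factor (10 ng/ml) and the thyroid hormone T3 (15 nM). Both conditions shared that culture history. The labels state 12.5 mM for LPC, and whether that unit is right was not established. Strain, age, number of animals and any pooling were not stated in the labels.

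The autosomal lists held 38135 vehicle and 37736 LPC H3K27Ac peaks, and 4918 vehicle and 3203 LPC Olig2 peaks. They give positions only, so the read depth and the strength of each peak were unknown. A region without a vehicle peak may have lain just under the calling threshold of the vehicle library, and with 1 library per group that cannot be told apart from a gain of acetylation. No p-value was computed. Intervals after shares are exact 95% binomial (Clopper-Pearson) intervals, which cover counting error only and treat regions as independent. The identity of the cells was not checked against marker genes, because no annotation of the build (rn4) was used here.

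Isolated LPC-only regions outnumbered their counterpart with the conditions exchanged. The same rule applied to vehicle peaks with no LPC peak within 12.5 kb gave 1772 isolated vehicle-only regions (5.92% of the joined regions), so the LPC-only set was 1.93 times as large. It spanned 2.26 Mb, against 0.968 Mb for the vehicle-only set. Both numbers follow from the rule and are given as a description.

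Most members were short and consisted of 1 peak. Their median length was 543 bp, with quartiles of 416 and 769.5 bp, a 90th percentile of 1155 bp and a range from 207 to 3994 bp. Isolated vehicle-only regions were shorter, with a median of 481.5 bp and quartiles of 407 and 591 bp, and LPC-only regions within 12.5 kb of a vehicle peak were slightly longer, with a median of 593 bp. The whole lists differed in the same direction, since the median autosomal H3K27Ac peak was 829 bp in LPC and 676 bp in vehicle. Shared regions, which held peaks of both conditions, had a median of 1685 bp. The length curves of the 2 LPC-only sets ran close together, and the vehicle-only curve rose more steeply. A single LPC peak made up 3110 members (90.7%, 89.7 to 91.7), 300 members held 2 peaks, 14 held 3 and 3 held 4.

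**Figure D1:**
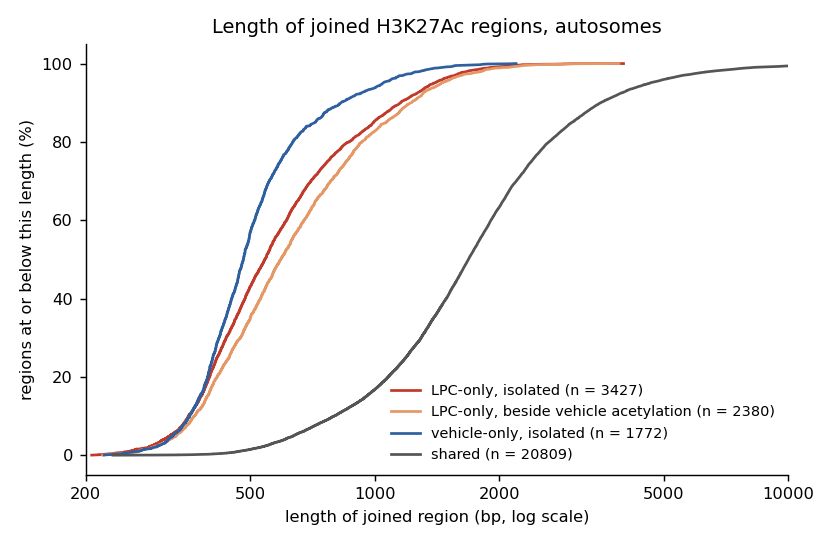
Cumulative share of joined autosomal H3K27Ac regions (vertical axis, %) at or below a given length (horizontal axis, bp, log scale) for isolated LPC-only, LPC-only beside vehicle acetylation, isolated vehicle-only and shared regions. The isolated LPC-only curve crosses 50% at 543 bp, left of the shared curve (1685 bp) and right of the isolated vehicle-only one (481.5 bp).

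The members also had a longer tail than the isolated vehicle-only regions. At least 1000 bp long were 504 members (14.7%) but 111 isolated vehicle-only regions (6.26%). At least 2000 bp long were 29 members (0.846%) and 2 isolated vehicle-only regions (0.113%). The longest isolated vehicle-only region, on chromosome 4 (126091795 to 126093990), spanned 2196 bp, less than any of the 10 longest members. The full lists differed in the same direction: 39.6% of LPC and 27.1% of vehicle H3K27Ac peaks reached 1000 bp.

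The members took mainly the short end of the LPC list. They held 3764 of the 37736 autosomal LPC H3K27Ac peaks (9.97%). In the shortest 20% of that list, with peaks of 179 to 515 bp, 24.5% (23.6 to 25.5) belonged to members. The share was 14.0%, 7.61% and 3.37% in the next 3 steps of 20%, and 0.279% (0.173 to 0.426) in the longest 20%, where peaks reached at least 1515 bp. Only 3 of 3801 LPC peaks of 2000 bp or more were in a member.

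The 10 longest members were groups of 2 to 4 peaks. The longest of all lay on chromosome 7 (60781465 to 60785458, 3994 bp) and was made of 4 LPC peaks of 1179, 1153, 741 and 469 bp. The nearest vehicle H3K27Ac peak was 83.8 kb away and the nearest Olig2 peak of either list 278 kb away. It was therefore a stretch of acetylation with no called neighbour in the vehicle culture and no Olig2 peak nearby.

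The next 4 by length were also built of 3 or 4 peaks each. The second longest spanned 3030 bp (chromosome 2, 190793641 to 190796670), with vehicle acetylation 23.2 kb away. The third spanned 3008 bp (chromosome 10, 37380105 to 37383112) and stood 23.4 kb away. The fourth spanned 2881 bp (chromosome 16, 73302174 to 73305054) at a distance of 24.6 kb. A further one of 2831 bp, again on chromosome 2 (58319706 to 58322536), was 18.4 kb from vehicle acetylation. All 4 lay nearer to it than the longest member did. The chromosome 16 region held the broadest single peak among the 10 longest members, 1897 bp. The second chromosome 2 region came nearest to an Olig2 site, with a vehicle Olig2 peak 9.04 kb away.

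The rest of the 10 longest had spans from 2829 bp down to 2415 bp. In order of length, the first of these was found on chromosome 4 (58401056 to 58403884), with 3 LPC peaks, and it was followed by a region of chromosome 1 (59370067 to 59372589). A region of 2 peaks on chromosome 17 (93110397 to 93112865) came next, then another of 2 peaks on chromosome 10 (94764914 to 94767359). The shortest of the 10 was a group of 3 peaks on chromosome 2 (149434227 to 149436641). The chromosome 1 region was made of 4 peaks of 492, 488, 593 and 714 bp, with no vehicle Olig2 peak within 3262 kb. The shortest stood 346 kb from vehicle acetylation, the farthest of the 10. None of the 10 longest members overlapped an Olig2 peak in either condition. Among all members of 1200 bp or more, 26 of 307 (8.47%) carried a vehicle Olig2 peak. The 10 regions are too few to be told apart from that share.

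The distance to vehicle acetylation varied widely among members. Its median was 39.4 kb, with quartiles of 21.6 and 86.2 kb, a 90th percentile of 192 kb and a maximum of 2582 kb. Just inside the limit were a region on chromosome 1 (211241679 to 211243067) at 12.506 kb and one on chromosome 11 (73762686 to 73763649) at 12.51 kb. Just outside it were LPC-only regions on chromosome 14 (50532702 to 50533280) at 12.497 kb and chromosome 8 (20039311 to 20040032) at 12.477 kb. The limit cut through a continuous spread of distances.

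The most remote members with vehicle peaks on both sides were small. A pair on chromosome 7 (5941367 to 5941712 and 5953358 to 5953610), 346 and 253 bp long, lay 2582 and 2570 kb from vehicle acetylation. A pair on chromosome 2 (131011239 to 131011702 and 131369596 to 131369959) lay 1875 and 1517 kb away, and a 635 bp region on chromosome 11 (40027295 to 40027929) lay 1445 kb away. Each was a single LPC peak, and the nearest vehicle Olig2 peak was 1496 to 3848 kb away.

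Members became sparser with distance from vehicle acetylation. To correct for the amount of genome at each distance, counts were divided by the megabases of autosome, between vehicle peaks, that lay in each band of distance. All bases were counted, and stretches in which no peak could be called were not taken out. There were 3.93 members per Mb (Poisson 95% interval 3.70 to 4.17) from 12.5 to 25 kb. The density was 2.66 per Mb from 25 to 50 kb, 1.68 from 50 to 100 kb, 1.02 from 100 to 250 kb and 0.438 (0.384 to 0.497) farther out. The intervals of successive bands did not overlap. The decline began inside the limit, since LPC-only regions 1 to 2.5 kb from a vehicle peak stood at 8.49 per Mb and those from 5 to 12.5 kb at 5.02 per Mb.

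Vehicle-only regions declined in the same manner with distance from LPC acetylation. They stood at 1.99 per Mb from 12.5 to 25 kb and at 0.227 per Mb beyond 250 kb. The LPC-only density was 1.60 to 1.68 times the vehicle-only one in the 3 bands inside the limit and 1.79 to 2.18 times in the 5 bands outside it. The difference between these ranges was not tested.

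Olig2 sites did not thin out in the same way over the first 100 kb. Vehicle Olig2 peaks that lay off vehicle H3K27Ac peaks stood at 1.07 per Mb (0.952 to 1.20) from 12.5 to 25 kb, at 1.02 from 25 to 50 kb and at 0.882 (0.791 to 0.980) from 50 to 100 kb. They fell to 0.703 per Mb from 100 to 250 kb and 0.279 per Mb beyond. Members were thus 3.93 against 1.07 per Mb near the limit, and 0.438 against 0.279 per Mb in the most remote band.

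**Figure D2:**
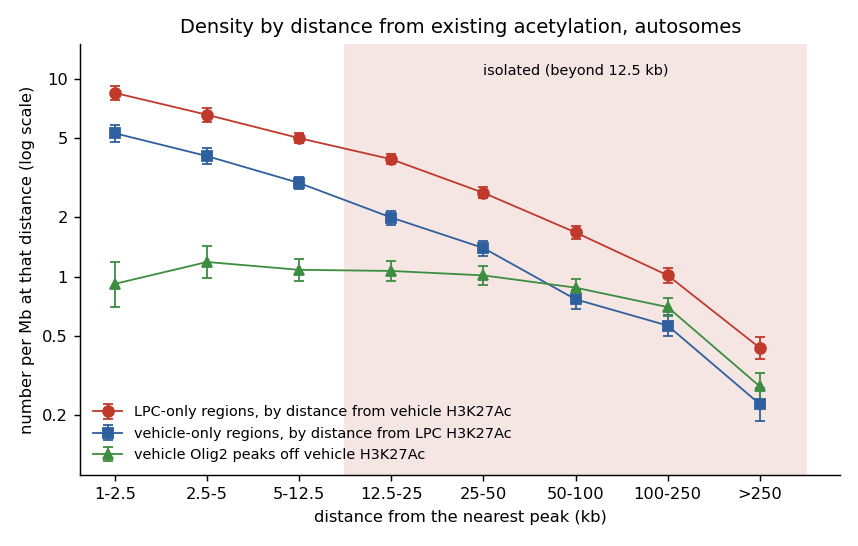
Number per Mb of autosome (vertical axis, log scale) by distance from the nearest H3K27Ac peak (horizontal axis, kb) for LPC-only regions, vehicle-only regions and vehicle Olig2 peaks lying off vehicle H3K27Ac; bars are exact 95% Poisson intervals for counting error. In the shaded part, which holds the isolated regions, the LPC-only line falls from 3.93 to 0.438 per Mb, with the vehicle-only line below it in each band.

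Within a single band of distance, density also differed with the length of the gap between vehicle peaks. Within the strip 12.5 to 25 kb from a vehicle peak, gaps of 25 to 50 kb held 4.91 members per Mb (4.30 to 5.58) and gaps of 50 to 100 kb held 4.59. Gaps of 100 to 250 kb held 3.57, those of 250 to 500 kb 2.74, and those over 500 kb 2.17 (1.62 to 2.83). Gaps under 50 kb do not reach 25 kb from either edge, so their value covers mainly the near part of the strip. Among gaps over 50 kb, which hold the whole strip, members were denser in short gaps than in long ones. In all, 2714 of the 13468 autosomal gaps longer than 25 kb (20.2%) held at least 1 member. The gaps with a member had a median length of 157 kb, against 78.1 kb for all such gaps. A longer gap has more sequence beyond 12.5 kb of its edges, so this difference follows largely from gap length. A member lay in 5.25% of gaps of 25 to 50 kb and in 49.5% of those over 500 kb.

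Members far from vehicle acetylation were somewhat shorter. Their median length went from 561 bp in the nearest band to 472 bp beyond 250 kb. More than 1 LPC peak was held by 9.27% of members in the nearest band, 9.88% from 100 to 250 kb and 5.81% beyond. A vehicle Olig2 peak overlapped 4.05% (2.88 to 5.51) of members from 25 to 50 kb, the lowest of the 5 bands, and 6.52% (4.53 to 9.04) from 100 to 250 kb, the highest, and these intervals overlap. The nearest region with vehicle peaks was a shared one for 85.8% of members (84.5 to 86.9), where shared regions made up 86.2% of all regions with vehicle peaks. That neighbour carried a vehicle Olig2 peak for 12.2% of members (11.1 to 13.4), against 11.9% over all regions with vehicle peaks.

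Members mostly stood alone in the LPC list, which the rule largely fixes, since most LPC peaks lie in regions shared with vehicle. No other LPC H3K27Ac peak lay within 12.5 kb of 3046 members (88.9%), and the median distance to the next LPC peak was 33.0 kb. The same measure in the vehicle list gave 91.9% for isolated vehicle-only regions, and 50.3% of shared regions had no further LPC peak that close. The other 381 had an LPC neighbour, which for 300 of them was another member. The remaining 81 had no fellow member that close, and the class of their LPC neighbour was not looked up. Linking members at most 12.5 kb apart gave 141 pairs and 6 chains of 3, so 8.75% of members had a fellow member close by. Among isolated vehicle-only regions, a sparser set, the share was 6.32%.

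The widest chains of 3 were spread over as many as 13 or 16 kb and were made of small regions. The widest, 16.3 kb on chromosome 9 (24185037 to 24201300), had members of 548, 487 and 423 bp and lay 28.1 kb from vehicle acetylation. Its middle member overlapped an Olig2 peak of both lists. The second, also on chromosome 9 (98601936 to 98615001), spanned 13.1 kb, and the third, on chromosome 2 (212597673 to 212609635), spanned 12.0 kb and held 4 LPC peaks. The fourth was found on chromosome 15 (44504933 to 44515938) and the last on chromosome 1 (262202174 to 262211833). These last 4 held no Olig2 peak in either list. Of all 147 chains of 2 or more members, 12 held one, so none among 4 chains is near that share.

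**Figure D3:**
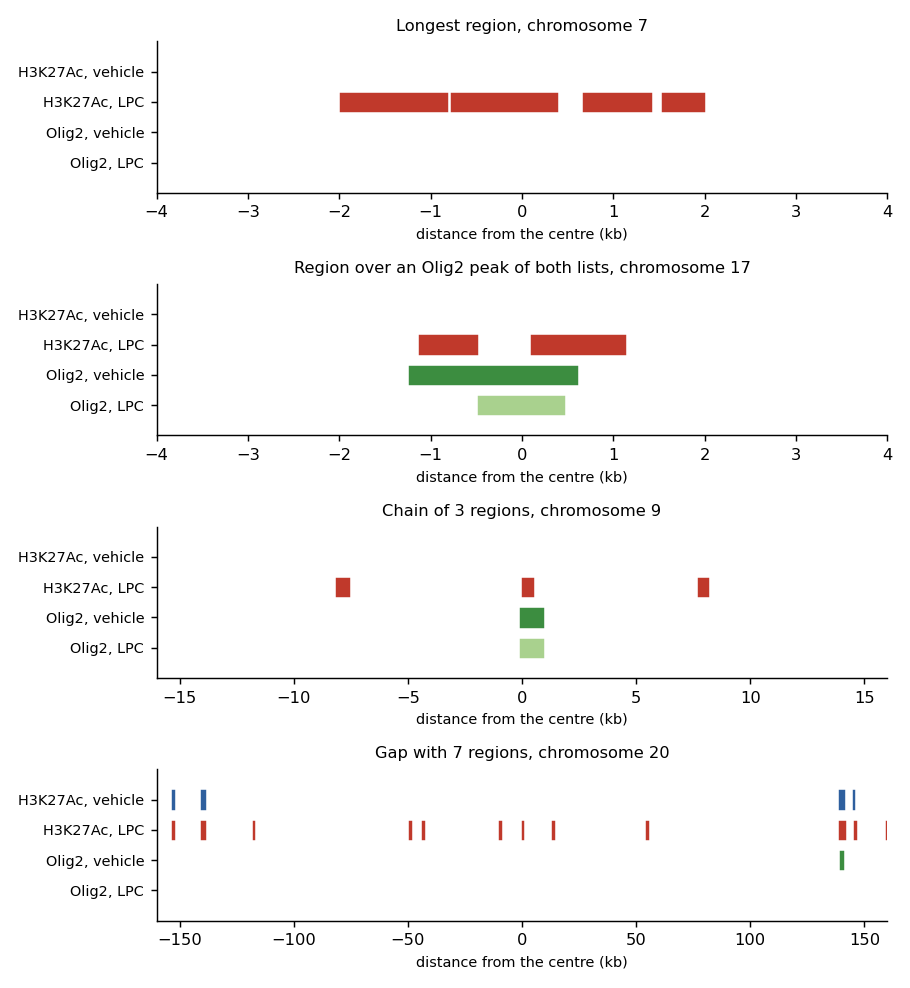
Peak positions in the 4 lists (rows) by distance from the centre (horizontal axis, kb) at the longest member, the longest member with an LPC Olig2 peak, the widest chain of 3 members and a gap between vehicle peaks that holds 7 members. Boxes are called peaks drawn to scale; the H3K27Ac vehicle row is empty in the first 3 maps, and in the lowest one vehicle peaks lie only at both ends.

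Members were found on each autosome, in shares that differed somewhat. They made up between 9.39% (8.13 to 10.8) of joined regions on chromosome 10 and 13.7% (11.8 to 15.8) on chromosome 17, with 11.4% overall. They outnumbered isolated vehicle-only regions on all 20 autosomes, from 1.56 times on chromosome 6 to 2.76 times on chromosome 12, where the counts were 91 and 33.

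The Olig2 lists were not used to choose the members, and few members carried Olig2. A vehicle Olig2 peak overlapped 163 of 3427 members by at least 1 bp (4.76%, 4.07 to 5.52), where 10.4% of all joined regions had one. An LPC Olig2 peak overlapped 106 members (3.09%, 2.54 to 3.73), against 6.88% of all joined regions. Neither list had a peak on the remaining 3262 members. The LPC list was shorter throughout, and whether the lower share in it reflects a change of binding was not tested.

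Nearly all Olig2 peaks on members were in the vehicle list, as they were on other regions. Of the 165 members with an Olig2 peak in either list, 59 had one in the vehicle list alone, 2 in the LPC list alone and the rest in both. The vehicle list therefore held 98.8% of them, where it held 98.9% among shared regions with Olig2 and 98.6% among isolated vehicle-only ones. Of the 163 vehicle Olig2 peaks on members, 63.8% (55.9 to 71.2) were kept in LPC, close to the 64.1% kept among all autosomal vehicle Olig2 peaks. The difference from the other 4755 peaks was -0.34 percentage points (Newcombe 95% interval -8.08 to 6.78). That interval is wide, so a moderate difference in either direction was not detectable.

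Seen from the Olig2 side, distant sites were acetylated after LPC about equally often whether or not they were kept. There were 1503 vehicle Olig2 peaks more than 12.5 kb from any vehicle H3K27Ac peak, and 164 of these (10.9%, 9.38 to 12.6) overlapped an LPC H3K27Ac peak. Of the 943 kept ones 11.0% did, and among those missing from the LPC list 60 of 560 (10.7%), a difference of 0.31 points (-3.07 to 3.47). With the conditions exchanged, 140 of the 1454 vehicle Olig2 peaks far from LPC acetylation overlapped a vehicle H3K27Ac peak (9.63%, 8.16 to 11.3).

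Of the 48 autosomal LPC-only Olig2 peaks, 2 lay on members (4.17%, 0.509 to 14.3), and both were on chromosome 19. The share was 3.31% over all autosomal Olig2 peaks of either list, within that wide interval. One member (16124549 to 16125902) had 3 LPC H3K27Ac peaks and held the whole of a 939 bp Olig2 peak. It was 117 kb from vehicle acetylation. The other (20710990 to 20711744) was a single peak of 755 bp that shared 509 bp with an 857 bp Olig2 peak, 257 kb from vehicle acetylation. At these 2 sites both marks were called after LPC and neither was called in vehicle.

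Members carried Olig2 more often than LPC-only regions beside vehicle acetylation and less often than isolated vehicle-only regions. For vehicle Olig2 the share was 2.77% (2.15 to 3.51) in the regions beside vehicle acetylation, so members exceeded them by 1.98 points (0.99 to 2.95). It was 8.07% (6.84 to 9.44) in isolated vehicle-only regions, and members were 3.31 points lower (difference -3.31, -4.83 to -1.91). For LPC Olig2 the differences were 1.33 points (0.52 to 2.11) and -2.32 points (-3.59 to -1.17). All 4 intervals lie clear of 0, but they carry counting error of single libraries only.

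Among shared regions, those with no further vehicle peak within 12.5 kb of their ends are the nearest equivalent of the members in setting. These 11011 solitary shared regions had a vehicle Olig2 peak in 11.9% (11.3 to 12.6) and an LPC Olig2 peak in 7.87%. Shared regions with vehicle neighbours had one in 13.8% and 9.26%. Vehicle-only regions beside LPC acetylation (4.29%) differed from members by 0.47 points (-0.84 to 1.65), an interval that includes 0.

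**Figure D4:**
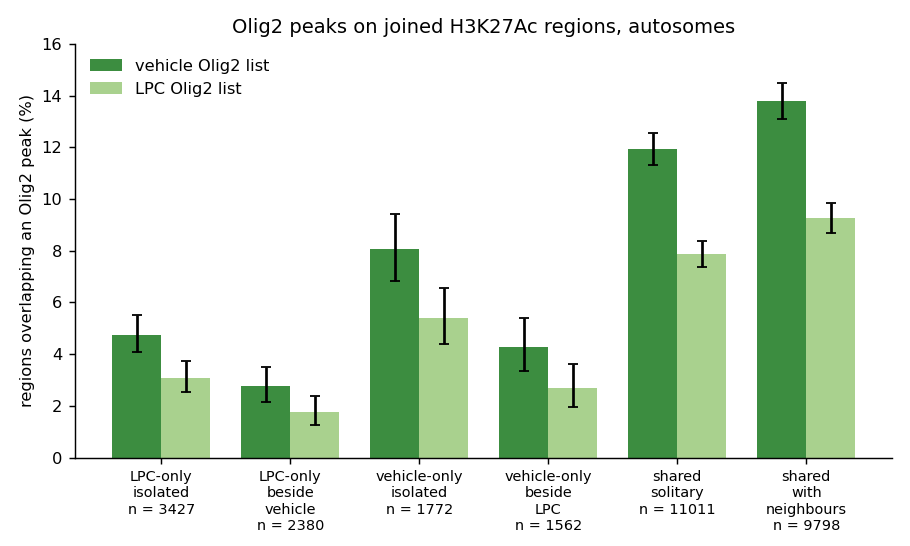
Share of joined autosomal H3K27Ac regions that overlap an Olig2 peak (vertical axis, %) in 6 sets of regions, for the vehicle and the LPC Olig2 list; bars are exact 95% binomial intervals and n is the number of regions. Isolated LPC-only regions, at 4.76% and 3.09%, stand above LPC-only regions beside vehicle acetylation and below isolated vehicle-only and both shared sets.

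Longer members carried Olig2 more often. A vehicle Olig2 peak lay on 2.46% (1.44 to 3.92) of members under 400 bp and on 3.20% of those from 400 to 599 bp. It lay on 7.29% (5.39 to 9.60) from 600 to 799 bp, on 6.58% from 800 to 1199 bp and on 8.47% (5.61 to 12.2) of those of 1200 bp or more. A longer region has more bases to overlap, so the sets were also compared at like length.

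At like length the members' excess over regions beside vehicle acetylation lay in the longer classes. It was 4.17 points (1.52 to 6.77) from 600 to 799 bp, 3.84 points (1.11 to 6.66) from 800 to 1199 bp and 4.87 points (0.81 to 8.89) from 1200 bp upward. Under 400 bp it was 1.18 points (-0.75 to 2.80) and from 400 to 599 bp 0.16 points (-1.47 to 1.63), and both intervals include 0. Against isolated vehicle-only regions, members were lower by 4.58 points (difference -4.58, -6.63 to -2.69) from 400 to 599 bp. The difference was -3.32 points (-6.21 to -0.93) under 400 bp and -6.08 points (-12.6 to -0.99) from 800 to 1199 bp. Its interval included 0 from 600 to 799 bp (-2.44, -7.34 to 1.51) and from 1200 bp upward (-2.17, -14.4 to 4.86).

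Solitary shared regions of middling length resembled the members in this respect. From 600 to 799 bp, 7.29% of members and 7.23% of solitary shared regions had a vehicle Olig2 peak, a difference of 0.06 points (-2.68 to 2.89). From 400 to 599 bp the difference was -3.55 points (-6.30 to -1.33), and from 1200 bp upward, where shared regions extend to much greater lengths, it was -5.23 points (-7.97 to -1.51). Against shared regions with neighbours, members were higher by 3.80 points (1.20 to 6.42) from 600 to 799 bp. From 1200 bp upward they were lower than that set (difference -7.90, -10.7 to -4.16), and in the other classes the interval included 0. With each set weighted to the lengths of the members, vehicle Olig2 lay on 4.76% of members, 2.71% of LPC-only regions beside vehicle acetylation, 8.69% of isolated vehicle-only regions, 5.09% of vehicle-only regions beside LPC acetylation, 7.96% of solitary shared regions and 5.11% of shared regions with neighbours. Members therefore still lay between the LPC-only regions beside vehicle acetylation and the isolated vehicle-only regions, and the gap to shared regions was smaller than in the unweighted shares. Vehicle-only regions beside LPC acetylation changed sides, from 4.29% unweighted, below the members, to 5.09%. For LPC Olig2 the weighted shares were 3.09% of members, 3.13% of vehicle-only regions beside LPC acetylation and 2.78% of shared regions with neighbours, so the last of these fell below the members. The weighted shares of shared regions rest on few regions under 400 bp, a class that holds 690 members. There a vehicle Olig2 peak lay on 3 of 35 solitary shared regions and on 1 of 22 with neighbours. An LPC Olig2 peak lay on 0 of those 22. The class from 1200 bp upward was not matched for length within itself. No interval was computed for the weighted shares, so their order is given as a description.

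**Figure D5:**
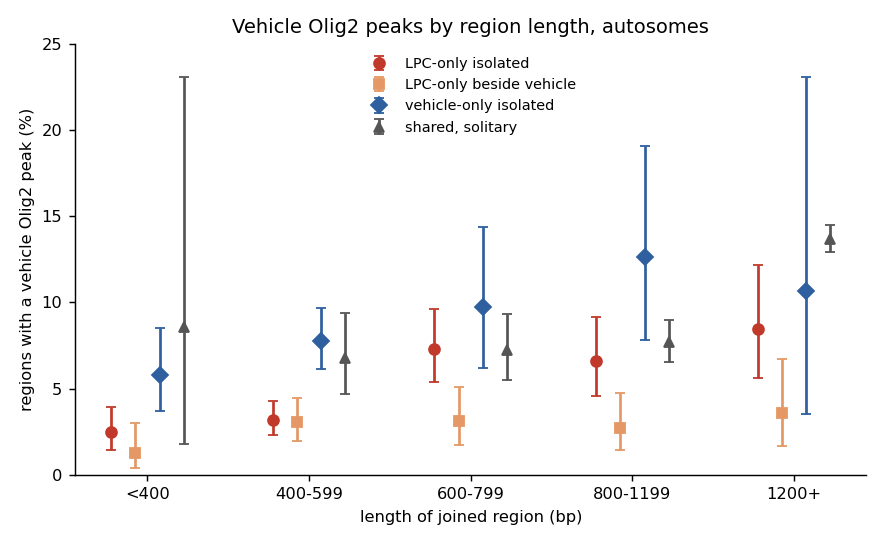
Share of regions with a vehicle Olig2 peak (vertical axis, %) by region length (horizontal axis, 5 classes in bp) for 4 sets of joined autosomal regions; bars are exact 95% binomial intervals. Isolated LPC-only regions rise from 2.46% to 8.47% with length, while LPC-only regions beside vehicle acetylation reach 3.60% in the longest class.

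Members with several peaks carried Olig2 more often than members with 1. Vehicle Olig2 lay on 28 of 317 members with 2 or more LPC peaks (8.83%, 5.95 to 12.5) and on 135 of 3110 with a single peak (4.34%, 3.65 to 5.12). The median span was 1333 bp in the former and 513 bp in the latter. Among members of at least 1000 and under 2000 bp alone, the shares were 9.27% (5.97 to 13.6) and 7.05% (4.08 to 11.2), which overlap widely.

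The Olig2 peaks on members were usually larger than the acetylated region itself. This follows largely from the sizes of the 2 sets, since the median autosomal vehicle Olig2 peak was 1059 bp and the median member 543 bp. The overlap values are given as a description and were not set beside those of other regions. In 130 of the 163 overlaps (79.8%) the vehicle Olig2 peak was longer than the member, and in 61 it spanned the whole of it. The Olig2 midpoint lay inside the member in 115 (70.6%), and the median distance between the midpoints was 230.5 bp. LPC H3K27Ac peaks covered a median of 54.1% of the Olig2 peak. The median length of these Olig2 peaks was 1023 bp, above the 908 bp of vehicle Olig2 peaks without H3K27Ac in either list and below the 1183 bp on solitary shared regions. Those kept in LPC had a median of 1076 bp and the 59 that were missing in LPC 941 bp.

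In members with exactly 2 LPC peaks, the Olig2 midpoint sometimes fell in the space between them. It did so in 8 of 27 cases (29.6%, 13.8 to 50.2), against 69 of 422 (16.4%, 13.0 to 20.2) in solitary shared regions with 2 LPC peaks. The spaces in those members were wider, with a median of 199 bp against 96 bp, and the intervals overlap.

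The 5 longest members with an LPC Olig2 peak each lay over a site that was also called in vehicle. The longest, on chromosome 17 (52526334 to 52528599, 2266 bp), was made of 2 LPC peaks of 635 and 1034 bp, 12.7 kb from vehicle acetylation. A vehicle Olig2 peak of 1832 bp overlapped it by 1731 bp, and the LPC Olig2 peak of 940 bp lay wholly inside it. The LPC Olig2 peak began in the space between the 2 H3K27Ac peaks.

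The second, on chromosome 2 (124449198 to 124451349), held 3 LPC peaks and an Olig2 peak that measured 1450 bp in the vehicle list and 1356 bp in the LPC list. The third, on chromosome 1 (236314394 to 236316400), enclosed Olig2 peaks of 1510 and 1396 bp completely. The fourth, also on chromosome 1 (84591737 to 84593673), was a single H3K27Ac peak of 1937 bp, and it was the only one of the 5 whose Olig2 peak was longer in LPC than in vehicle by over 500 bp, 1994 against 1431 bp. The last, on chromosome 3 (168524452 to 168526266), stood out by its distance of 518 kb from vehicle acetylation, and its Olig2 peak measured 1045 bp in the vehicle list and 1126 bp in the LPC list.

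Beyond direct overlap, Olig2 was rarely close to a member. A vehicle Olig2 peak lay beside but not on the region within 1 kb of 9 members, within 5 kb of 39 and within 12.5 kb of 93 of the 3427. At 12.5 kb the same held for 61 of 1772 isolated vehicle-only regions and 254 of 11011 solitary shared regions. Such neighbours were thus few in these sets as well, and their scarcity was not particular to members. Counting overlaps, 7.47% of members had a vehicle Olig2 peak within 12.5 kb, against 21.6% of LPC-only regions beside vehicle acetylation and 11.5% of isolated vehicle-only regions. The median distance to the nearest vehicle Olig2 peak was 139 kb for members, 73.5 kb for the regions beside vehicle acetylation and 123 kb for isolated vehicle-only regions. The rule bears on these distances, because most vehicle Olig2 peaks overlap regions with vehicle acetylation and members lie away from it by construction. The greater distance of members than of regions beside vehicle acetylation is therefore given as a description.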

How the data were processed

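Per the submitters' processing notes, peaks were called with MACS 1.4.2 on rn4. The authors deposited 1 list per library with 3 columns (chromosome, start, end); these positions are in no unit of signal, and the deposited lists hold no score or count. The threshold, control library, aligner and depth were not stated in the sources used here. Overlap meant at least 1 bp. Interval code used SciPy 1.17.1, statsmodels 0.14.6, pandas 2.3.3 and numpy 2.4.6 under Python 3.11.15 and was checked against bedtools 2.31.1. It was also run on 15170 simulated regions, where the number found in each simulated class equalled the number made. The simulated isolated regions lay well beyond the 12.5 kb limit, and vehicle-only regions beside LPC acetylation were not simulated. Coordinates are 1-based. Lengths of genome by distance were counted between the first and last vehicle (or LPC) peak of each autosome, which left out 7 members. Differences of shares carry Newcombe intervals.

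The members, sets and tests were chosen with earlier results of these data known, and the solitary shared set, the length classes and the distance bands after the lists were seen. Regions named were the 10 longest, the 5 widest chains of the most members, the 5 most remote, the 5 longest with an LPC Olig2 peak, those with an LPC-only Olig2 peak, and 2 on each side of the limit. Genes and sequences of rn4 were not analysed here.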

Additional observations from a re-analysis of the deposited data

Results flagged for a closer look

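Chromosome X lies outside the rule for the members and is given here because it holds the same kind of signal. By the same joining and isolation distances, X had 138 isolated LPC-only regions among 660 joined regions (20.9%) and 30 isolated vehicle-only regions, a ratio of 4.60. The autosomes together gave 1.93, and the highest single autosome, chromosome 12, gave 2.76. The whole lists held 38902 vehicle and 38721 LPC H3K27Ac peaks, of which 38135 and 37736 were autosomal. Off the autosomes the LPC list was therefore the larger one. The sex of the animals was not among the label entries used here. With 1 library per group the difference in ratio between X and the autosomes was not tested.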

How the results depend on the processing

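With 1 library per group, no replicate could be left out, and depth or score filters could not be run. No paired analysis was possible because the labels carry no replicate numbers and no result comes from a test. Of 67 recomputed values, 52 stayed within the counting interval of the reported value (counts within 1.5 times) and 15 moved. Without joining (0 bp) the median length was 520 bp and, by construction, 100% of members held 1 peak. With isolation at 50 kb, 1399 members and 689 isolated vehicle-only regions remained, and the median length was 513 bp. Limiting condition-only regions to those whose longest peak reached its list's median left 507 members and 215 isolated vehicle-only regions, a ratio of 2.36. The members' median length was then 1045 bp, 88.2% held 1 peak, and 7.30% and 5.52% carried vehicle and LPC Olig2. With 50% of the Olig2 peak required inside the member, these shares were 2.83% and 1.84%. Single LPC peaks, in place of joined regions, stood at 4.34 per Mb from 12.5 to 25 kb. Chromosome 19, left out after the data were seen, changed the Olig2 shares to 4.81% and 3.05%. Under the reported settings and each of the 8 changes of joining, isolation, length limit or chromosomes, the members' vehicle Olig2 share lay between those of LPC-only regions beside vehicle acetylation (2.32% to 3.45%) and isolated vehicle-only regions (7.02% to 12.6%).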

Other observations

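A few gaps between vehicle peaks held many members. These were chosen after their values were seen. The most, 8, lay in a 1268 kb gap near the start of chromosome 2 (185224 to 1453437), and 7 lay in a much shorter gap of 278 kb on chromosome 20 (6569964 to 6847926). Neither gap had a member with an Olig2 peak. Over all members, 4.81% carried an Olig2 peak of either list, so none among so few members is near that share. A 299 kb gap on chromosome 17 (45553590 to 45852876) held 6 members, of which 2 carried a vehicle Olig2 peak and 1 an LPC Olig2 peak. A 1338 kb gap on chromosome 6 (45144592 to 46482492) held 5, of which 2 carried Olig2 in both lists. In all, 545 gaps held at least 2 members, and those gaps held 1251 members.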
